A study of Mus musculus with 4 samples.

Results

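The genes described here were 10 genes of interleukin 1 (IL-1) and interleukin 6 (IL-6) signalling, among 55401 genes counted in mouse kidney and heart. They were chosen by symbol, as ligands (Il1a, Il1b), a soluble antagonist (Il1rn), receptors (Il1r1, Il1r2, Il6ra, Il6st, Osmr), a transcription factor (Stat3) and its feedback inhibitor (Socs3), and all 10 were found in the files. The study compared C57BL/6 mice after cecal ligation puncture (CLP), an operation that lets gut bacteria leak into the abdomen, with mice given melatonin as well (CLP + MLT). For the kidneys, the methods describe male mice aged 8 weeks, melatonin in the drinking water at 25 μg/ml over 14 days, CLP on the next day and collection at 24 h. The hearts carry the same strain and the treatments CLP and CLP + MLT in their labels, and no source used here gives their dose, time or age. Each of the 4 groups had 1 library, and whether it came from 1 mouse or from pooled mice is not stated. The melatonin libraries are titled CLP+MLT4, and what the 4 stands for, and so whether the treatment described in the methods is theirs in every detail, is not stated either. No sham library was analysed here, so every value compares mice that had all undergone CLP.

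IL-1α and IL-1β are alarm cytokines that act through the receptor IL1R1. The antagonist IL1RN occupies that receptor without starting a signal, and IL1R2 is a decoy receptor that binds IL-1 without passing it on. IL-6 binds its receptor IL6RA, and the pair recruits the shared subunit gp130, encoded by Il6st. Oncostatin M uses gp130 together with OSMR. These receptors activate the transcription factor STAT3, which switches on acute phase genes and also Socs3, whose protein shuts the receptor down again. In sepsis both cytokine families are known as early drivers of the inflammatory and acute phase response.

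Reads counted on genes ranged from 15883057 to 22927905 per library, and mitochondrial genes took 14.8% to 36.0% of them. Between the kidney libraries this share was 14.8% with CLP and 24.2% with CLP + MLT, and reads that did not map uniquely were 23.6% and 32.6% of the file; their part in the kidney values below was not tested. The labelled tissues showed in their markers. The summed level of 8 kidney epithelial markers was 7538 (CLP) and 8725 (CLP + MLT) CPM (read counts scaled to a common library size) in kidney, against 117 and 221 CPM in heart, and that of 6 cardiomyocyte markers was 29851 and 19203 CPM in heart, against 7.05 and 12.9 CPM in kidney. Of the kidney epithelial markers, 4 of the 7 that passed the filter in heart were higher in the CLP + MLT heart library, and their part in the heart values below was not tested. Counts were scaled within each tissue with the TMM method, and only genes that averaged 10 counts or more in a tissue were compared. Past the thresholds means a fold of at least 1.5 together with a p of at most 0.01 when reads are compared by an exact binomial test; such a test speaks of the 2 libraries, not of the treatment. Intervals are 95% Clopper-Pearson intervals and cover counting error only. With no replicate, no difference could be set against the spread between mice, and in whole tissue fewer cells of a type and less RNA per cell cannot be told apart.

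The region in front of a start site is shown for the genes whose counts moved most, since STAT proteins bind the pattern TTCNNNGAA, which reads the same on both strands. RefSeq windows on GRCm38.p6, from 250 bases before to 50 bases after a start, were found for all 10 genes, 13 windows in all. The pattern was present in 2 of the 13 windows, those of Socs3 and Il1r2, and in 8.30% of all 32851 windows. Capitals mark it in the sequences below, which run 5′ to 3′ along the gene. The Socs3 window is chr11:117969317-117969616 (minus strand), where the match begins 154 bases before the start; the first transcribed bases of this window were in 0 of 3 GENCODE transcripts of the gene, so GENCODE M21 does not hold this start. The Il1r2 window is chr1:40085843-40086142 (plus strand), with the match 111 bases before a start held by 1 of 4 transcripts. Both windows lie within the annotated spans of their genes, and the sequence before the outermost annotated start of either gene was not searched. The windows of Stat3 (chr11:100939491-100939790, minus strand) and of the upstream start of Il1rn (chr2:24336610-24336909, plus strand) hold no match, which says only that these letters are not in these windows.
Socs3: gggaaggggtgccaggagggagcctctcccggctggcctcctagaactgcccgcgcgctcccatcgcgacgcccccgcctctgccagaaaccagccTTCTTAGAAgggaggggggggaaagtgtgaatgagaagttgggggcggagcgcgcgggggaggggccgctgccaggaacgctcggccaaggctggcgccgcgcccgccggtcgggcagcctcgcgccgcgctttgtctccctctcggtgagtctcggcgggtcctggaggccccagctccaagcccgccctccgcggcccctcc
Il1r2: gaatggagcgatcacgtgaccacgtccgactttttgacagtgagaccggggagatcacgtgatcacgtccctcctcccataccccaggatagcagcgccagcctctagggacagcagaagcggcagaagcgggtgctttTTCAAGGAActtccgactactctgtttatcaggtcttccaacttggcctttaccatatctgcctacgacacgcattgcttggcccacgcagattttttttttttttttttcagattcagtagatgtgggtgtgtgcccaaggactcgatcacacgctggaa
Stat3: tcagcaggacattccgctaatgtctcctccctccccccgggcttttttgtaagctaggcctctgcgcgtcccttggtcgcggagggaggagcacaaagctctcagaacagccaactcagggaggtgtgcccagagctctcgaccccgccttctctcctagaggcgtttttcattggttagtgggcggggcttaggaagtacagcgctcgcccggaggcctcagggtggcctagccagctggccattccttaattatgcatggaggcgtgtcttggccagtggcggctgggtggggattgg
Il1rn: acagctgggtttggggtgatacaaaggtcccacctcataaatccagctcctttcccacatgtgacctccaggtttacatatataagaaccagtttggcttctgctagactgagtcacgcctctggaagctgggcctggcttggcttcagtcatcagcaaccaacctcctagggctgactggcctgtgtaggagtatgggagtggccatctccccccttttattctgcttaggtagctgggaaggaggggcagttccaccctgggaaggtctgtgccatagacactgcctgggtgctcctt

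Between the kidney libraries, Stat3, Socs3, Il6ra and Il1rn were lower with melatonin, and no member was higher. Of the 10 genes 9 passed the filter on low counts, and 4 of these 9 were past the thresholds, all lower, against 15.4% of all 16932 genes tested in either direction and 7.58% in the lower and 7.8% in the higher direction. On the log2 scale the median ratio (CLP + MLT over CLP) of these 9 genes was −0.74, against 0.0029 for all genes tested. Over all genes past the thresholds in kidney, 50.7% were higher, and 23.5% when libraries were scaled by size only; the same 4 members were past the thresholds under both. Il1rn passed the filter only through its counts in the CLP library, with a mean of 10 counts. Between the heart libraries, Il1rn and Il1r2 were lower and none was higher, 2 of the 9 genes that passed the filter there, against 15.9% of all 15871 genes in either direction and 8.78% in the lower and 7.15% in the higher direction. The median of these 9 genes in heart was −0.10, against 0.0023 for all genes.

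**Figure D1:**
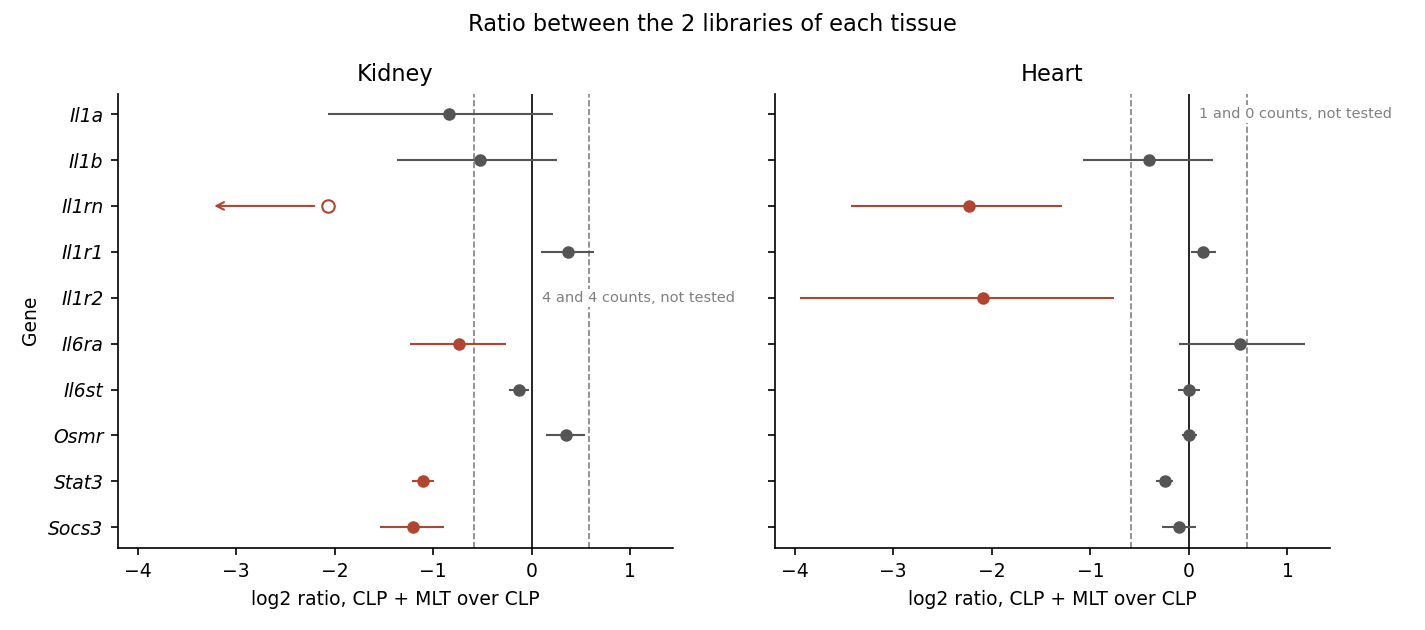
Log2 ratio of CLP + MLT over CLP for each gene in kidney (left) and heart (right); points are ratios of the 2 libraries, bars are 95% intervals of counting error, dashed lines mark a fold of 1.5 either way and red marks genes past the thresholds. The open point with an arrow is Il1rn in kidney, drawn 4.18-fold lower with its count of 0 set to the floor. This is not a lower bound, since the interval of its log2 ratio reaches up to −1.63. Stat3 and Socs3 lie near −1.10 and −1.21 in kidney but near −0.25 and −0.10 in heart.

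The ligands were rare transcripts. Il1a (ENSMUSG00000027399.1, GRCm38 chromosome 2 from 129299610 to 129309972) was read 29 times in the CLP kidney library and 10 times in the CLP + MLT kidney library. Its log2 ratio of −0.84 had an interval of −2.07 to 0.21, which spans 0, so no difference could be seen at this depth. In heart, Il1a had 1 count with CLP and 0 with CLP + MLT, too few for any ratio. Il1b (ENSMUSG00000027398.13, chromosome 2 from 129364570 to 129371139) had 46 and 20 counts in kidney, a log2 ratio of −0.52 (−1.37 to 0.26). The heart libraries held 48 and 36 counts of Il1b, a log2 ratio of −0.40 (−1.07 to 0.25). Both intervals include no difference and also a fall of more than 1.5-fold, so the lower counts of both ligands with melatonin were within counting error. Exons of Il1a and Il1b overlap genes on the opposite strand, Gm14023 and Il1bos, which had 42 and 20 counts and 17 and 12 counts in kidney. No source used here gives the strand setting of the counting, so reads of these pairs cannot be told apart. By reads, Il1a made up 38.7% of the Il1a and Il1b total in the CLP kidney library (27.6% to 50.6%) and 33.3% in the CLP + MLT kidney library (17.3% to 52.8%), but 2.04% in the CLP heart library (0.0517% to 10.9%).

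The antagonist Il1rn was the one gene past the thresholds in both tissues. Il1rn (ENSMUSG00000026981.15, chromosome 2 from 24336853 to 24351494) was read 20 times in the CLP kidney library and 0 times in the CLP + MLT kidney library. That is 4.18-fold lower when the 0 is set to 3 counts, and the interval of the log2 ratio reaches up to −1.63. The heart libraries held 49 and 10 counts, a 4.68-fold lower level with melatonin and a log2 ratio of −2.23 (−3.43 to −1.28). These are low counts, and in heart the call was lost once mice were assumed to vary with a coefficient of variation of 0.4 (edgeR's exact test), where 0.397% of all genes in heart were called. Within a library the reads of 2 genes can be set against each other without any scaling, a measure chosen after the values were seen. Il1rn made up 30.3% of the Il1rn and Il1b reads in the CLP kidney library (19.6% to 42.9%) and 0 of 20 in the CLP + MLT kidney library, where 3 counts would be 15.0% and the interval reaches 16.8%. In heart the share was 50.5% with CLP (40.2% to 60.8%) and 21.7% with CLP + MLT (10.9% to 36.4%). These shares restate the counts of a gene chosen by its values and are no further evidence.

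Of the IL-1 receptors, the signalling receptor Il1r1 was the abundant one and its level differed little between the libraries of a tissue. Il1r1 (ENSMUSG00000026072.12, chromosome 1 from 40225080 to 40317257) had 262 and 212 counts in kidney, and after scaling its log2 ratio was 0.37 (0.098 to 0.63). In heart it had 919 and 1011 counts (log2 ratio 0.15, interval 0.017 to 0.28). Both intervals lie above 0 with TMM scaling, but neither ratio reached a fold of 1.5. Scaled by library size only, the kidney ratio was 0.17. The decoy Il1r2 (ENSMUSG00000026073.13, chromosome 1 from 40074079 to 40125231), one of the genes with TTCNNNGAA in the window shown above, had 4 counts in each kidney library and was below the filter there. In heart Il1r2 fell from 23 to 5 counts, a 4.25-fold lower level and a log2 ratio of −2.09 (−3.94 to −0.76). This call too was lost at an assumed variation of 0.4, and both heart calls held at 0.2, where 4.17% of all genes were called. Il1r2, with a mean of 14 counts, passed the filter in heart only through the CLP library. It made up 2.44% of the Il1r2 and Il1r1 reads with CLP (1.55% to 3.64%) and 0.492% with CLP + MLT (0.160% to 1.14%).

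Neutrophils and monocytes are known sources of Il1r2, Il1rn and Il1b, so their markers are given beside these genes. The summed level of 9 neutrophil markers was 23.9 CPM with CLP and 16.5 CPM with CLP + MLT in kidney, and 55.3 and 39.2 CPM in heart. Of those that passed the filter, 3 of 7 were lower in kidney and 3 of 6 in heart, against 7.58% and 8.78% lower over all genes. Past the thresholds 0 were higher, but 2 of 7 in kidney and 1 of 6 in heart lay above 0, with Retnlg at 0.86 and 0.24. In kidney Ngp (53 and 2 counts) and Ltf (25 and 1 counts) passed the filter only through the CLP library. Ly6g, a defining neutrophil marker, had 0 counts in all 4 libraries. The 9 macrophage and monocyte markers summed to 151 and 242 CPM in kidney, with 2 of 8 higher and 1 lower, and to 227 and 285 CPM in heart, with 3 of 9 higher and 1 lower. Over all genes, 7.8% were higher in kidney and 7.15% in heart. The part of neutrophils, macrophages and monocytes in the values of Il1rn and Il1r2 was not tested.

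Of Il6ra, Il6st and Osmr, the receptors for IL-6 and oncostatin M, Il6ra was past the thresholds in kidney, and none of the 3 was in heart. Il6ra (ENSMUSG00000027947.11, chromosome 3 from 89864059 to 89913196) was counted 133 times in the CLP kidney library and 50 times in the CLP + MLT kidney library, a 1.66-fold lower level and a log2 ratio of −0.74 (−1.24 to −0.26). The call was lost at an assumed variation of 0.1, where 12.1% of all genes in kidney were called. Heart had 37 and 53 counts of Il6ra, a log2 ratio of 0.52 (−0.10 to 1.17) that was not past the thresholds. The heart minus kidney difference was 1.26, with an interval from 0.50 to 2.02 that covers the counting error of the 4 libraries only. Il6st (ENSMUSG00000021756.12, chromosome 13 from 112464070 to 112510086), which encodes gp130, had 2032 and 1166 counts in kidney and 1253 and 1246 in heart. Its log2 ratios were −0.13 (−0.23 to −0.025) and 0.0018 (−0.11 to 0.12), so the heart interval leaves no room for a change of 1.5-fold between these libraries. Osmr (ENSMUSG00000022146.12, chromosome 15 from 6813577 to 6874969) had 482 and 384 counts in kidney, a log2 ratio of 0.34 (0.15 to 0.54), and 2701 and 2691 counts in heart, a log2 ratio of 0.0045 (−0.073 to 0.082). Set against its partner in the same library, Il6ra made up 6.14% of the Il6ra and Il6st reads with CLP (5.17% to 7.24%) and 4.11% with CLP + MLT (3.07% to 5.39%) in kidney, and these intervals overlap.

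The transcription factor and its feedback inhibitor fell together in kidney. Stat3 (ENSMUSG00000004040.16, chromosome 11 from 100885098 to 100939540) was counted 2906 times with CLP and 849 times with CLP + MLT, a 2.15-fold lower level and a log2 ratio of −1.10 (−1.22 to −0.99). Socs3 (ENSMUSG00000053113.3, chromosome 11 from 117966079 to 117970047) had 376 and 102 counts, a 2.31-fold lower level and a log2 ratio of −1.21 (−1.54 to −0.89). Stat3 stood on many reads and had the narrowest interval of the genes past the thresholds. Both calls held at an assumed variation of 0.2, where 3.66% of all genes in kidney were called, and were lost at 0.4, where 0.532% were. In heart neither was past the thresholds. Stat3 had 2261 and 1893 counts there, a log2 ratio of −0.25 (−0.34 to −0.16), and Socs3 had 574 and 533 counts (log2 ratio −0.10, interval −0.27 to 0.076). The heart minus kidney difference was 0.86 (0.72 to 1.00) for Stat3 and 1.11 (0.75 to 1.47) for Socs3, both beyond the counting error of the 4 libraries. An exon of Stat3 overlaps the end of Stat5a on the opposite strand, which had 430 and 224 counts in kidney and 154 and 196 in heart, and without the strand setting their shared reads cannot be told apart.

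Socs3 kept nearly the same proportion to Stat3 in kidney. It made up 11.5% of the Socs3 and Stat3 reads with CLP (10.4% to 12.6%) and 10.7% with CLP + MLT (8.83% to 12.9%), and in heart 20.2% (18.8% to 21.8%) and 22.0% (20.3% to 23.7%). The intervals of the 2 libraries overlap in each tissue. Against its upstream receptor subunit, Stat3 did not keep its proportion in either tissue. In kidney it made up 58.8% of the Stat3 and Il6st reads with CLP (57.5% to 60.2%) and 42.1% with CLP + MLT (40.0% to 44.3%). In heart these shares were 64.3% (62.7% to 65.9%) and 60.3% (58.6% to 62.0%), intervals that do not overlap either, though Stat3 was not past the thresholds there. Like those of Il1rn, the shares of Socs3 and Stat3 restate counts given above and are no further evidence.

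**Figure D2:**
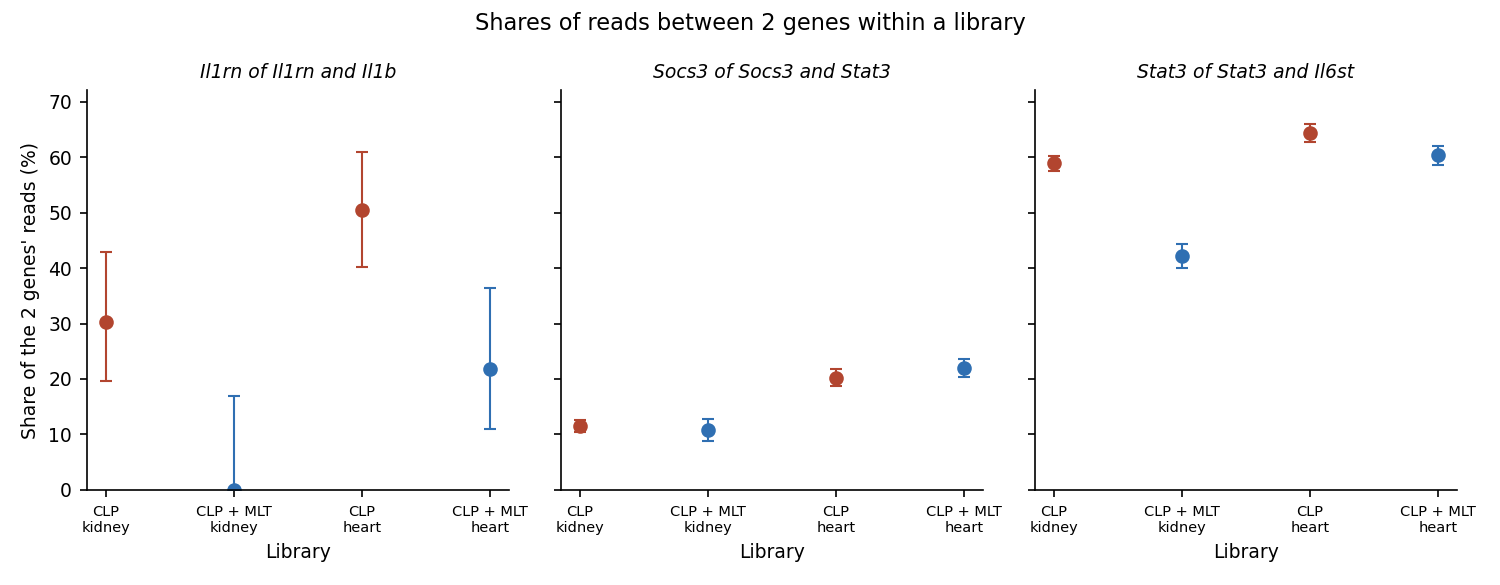
Share of reads that fell on the first of 2 genes within each library, in percent, with 95% Clopper-Pearson intervals of counting error as bars; red is CLP and blue is CLP + MLT. Il1rn falls against Il1b in both tissues, from 50.5% to 21.7% in heart, Socs3 stays level with Stat3, and Stat3 falls against Il6st from 58.8% to 42.1% in kidney and from 64.3% to 60.3% in heart.

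Levels of different genes were compared per length, as CPM per kilobase of exon, with kidney and heart scaled separately. In the CLP kidney library Stat3 stood highest with 12.4 CPM per kb, followed by Il6st with 7.46, Socs3 with 5.30, Il1r1 with 1.68 and Osmr with 1.62. Il1r1 and Osmr did not differ beyond their counting intervals. In the CLP + MLT kidney library the order at the top was reversed, with Il6st at 6.82 CPM per kb and Stat3 at 5.79, and Socs3 at 2.29 was no longer apart from Il1r1 at 2.16 and Osmr at 2.06. The heart had a different order. In the CLP heart library Stat3 (14.6 CPM per kb), Osmr (13.7) and Socs3 (12.2) were at the top, with neighbours in this order not apart beyond counting error, followed by Il1r1 (8.86) and Il6st (6.92). With CLP + MLT the heart values were 13.7 for Osmr, 12.3 for Stat3, 11.4 for Socs3, 9.81 for Il1r1 and 6.93 for Il6st. The oncostatin M receptor and the IL-1 receptor thus had higher scaled levels in both heart libraries than in both kidney libraries, while Il6st lay between 6.82 and 7.46 CPM per kb in all 4. The ligands Il1a and Il1b, the antagonist Il1rn and the decoy Il1r2 stayed below 1.6 CPM per kb everywhere. Their levels ran from 0, for Il1rn in the CLP + MLT kidney library and Il1a in the CLP + MLT heart library, to 1.54 for Il1b in the CLP heart library. Il6ra, at 0.263 to 0.627 CPM per kb, was far below Il6st in every library.

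**Figure D3:**
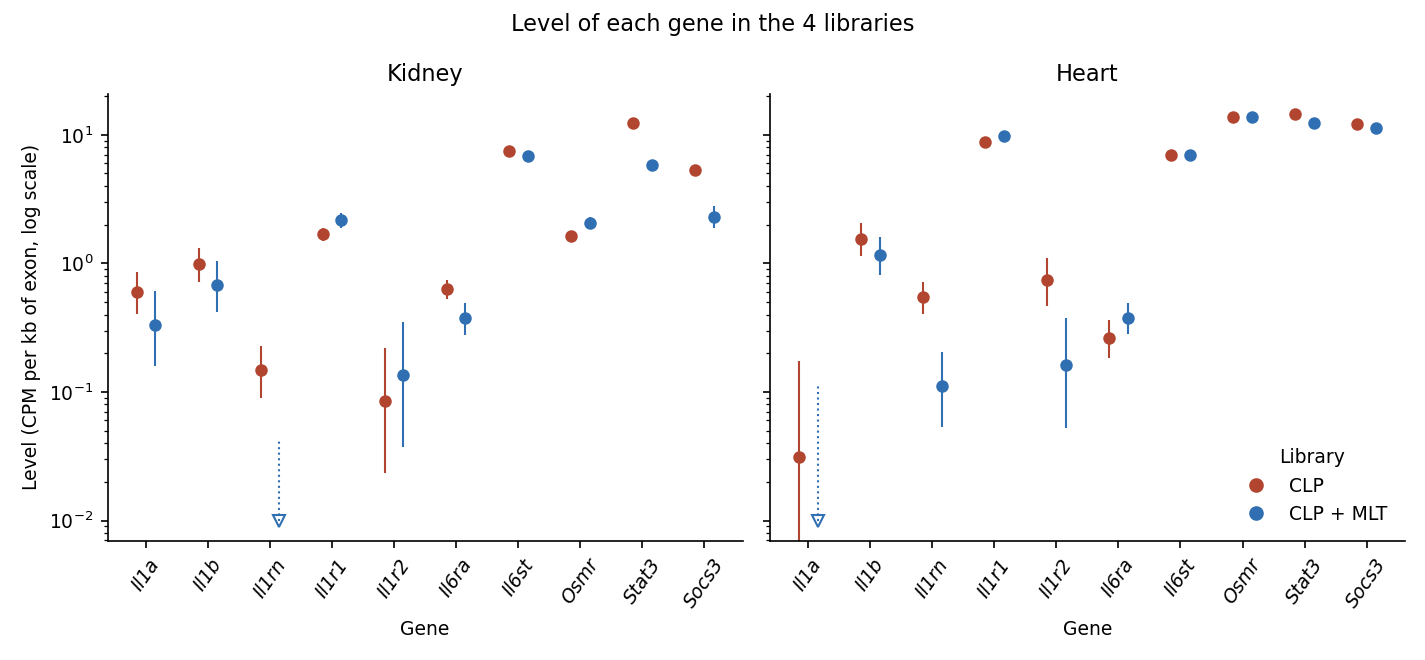
Level of each gene in the kidney (left) and heart (right) libraries as CPM per kb of exon on a log axis; points are single libraries, bars are 95% Poisson intervals and open triangles with dotted lines mark 0 counts and the interval above it. Stat3 drops from 12.4 to 5.79 CPM per kb in kidney, and Osmr lies near 13.7 in both heart libraries but at 1.62 and 2.06 in kidney.

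The other genes of both pathways were taken from 9 lists with 84 genes, of which 67 passed the filter in kidney and 69 in heart. Past the thresholds were 2 higher and 17 lower genes in kidney and 5 higher and 12 lower in heart. Of the lower genes, 12 in kidney and 10 in heart came from the list of IL-6 and STAT3 responsive genes. The lists were chosen with earlier results of these data known, so these totals are no independent evidence of a direction. Over all genes tested, 7.58% were lower and 7.8% higher in kidney, and 8.78% lower and 7.15% higher in heart. The cytokines themselves were scarce. Il6 had 4 and 1 counts in kidney and 0 and 1 in heart, and Osm, the ligand of Osmr, had 0 counts in all libraries but the CLP + MLT heart library, which had 2. Of the 10 IL-6 family ligands, 4 passed the filter in each tissue. Lif, which encodes leukemia inhibitory factor, fell from 54 to 8 counts in kidney, a 4.09-fold lower level (log2 ratio −2.03). Lif passed the filter in kidney only through the CLP library, so the filter favours a fall here. Ebi3, the shared chain of IL-27 and IL-35, rose in both tissues on low counts, from 16 to 28 in kidney (1.44, interval 0.54 to 2.46) and from 22 to 48 in heart (1.12, interval 0.38 to 1.93). Of the 4 other IL-6 family receptors, Cntfr, the receptor for ciliary neurotrophic factor, fell in heart from 56 to 16 counts (−1.77, interval −2.70 to −0.98), and 0 were past the thresholds in kidney.

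In the IL-1 family, 2 of 7 other ligands passed the filter. Past the thresholds were 15.4% of all genes tested in kidney and 15.9% in heart, so counts from lists this short are descriptions only. The alarmin Il33 rose in heart from 41 to 69 counts (log2 ratio 0.75, interval 0.18 to 1.36). In kidney Il33 had 186 and 78 counts, and its log2 ratio of −0.58 did not reach a 1.5-fold change. Of 7 other IL-1 family receptors and binding proteins, Il1rl2, the IL-36 receptor, rose in heart from 38 to 69 counts (0.86, interval 0.28 to 1.48), and 0 of 5 were past the thresholds in kidney. None of the 4 measured genes for IL-1 maturation was past the thresholds in either tissue, with medians of 0.32 in kidney and 0.088 in heart. Of the 10 relay genes below the IL-1 receptor, the adaptor gene Myd88 fell in kidney from 787 to 328 counts (log2 ratio −0.59, interval −0.78 to −0.40) at the edge of the fold threshold, and 0 were past the thresholds in heart. Medians of the relay genes were −0.084 and −0.011.

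Of the JAK kinases and other regulators of STAT signalling, 1 of 9 was past the thresholds in kidney and 2 of 10 in heart. The share over all genes was 15.4% in kidney and 15.9% in heart. The kinase genes Jak1, Jak2 and Tyk2 were not past the thresholds in either tissue. In kidney 9 of 10 listed genes passed the filter, with a median of 0.10, and the one gene past the thresholds was higher. This was Cish, a feedback inhibitor induced mainly through STAT5, with 905 and 1088 counts and a log2 ratio of 0.94 (0.81 to 1.07). Cish rose in heart as well, from 1290 to 2127 counts (0.73, interval 0.63 to 0.83), together with the phosphatase gene Ptpn6, from 445 to 758 counts (0.78, interval 0.61 to 0.95). Socs3 and Cish, both feedback genes of the same family, thus lay on opposite sides of 0 in kidney.

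Among genes known to respond to IL-6 and STAT3, 12 of 19 were lower with melatonin in kidney and 10 of 19 in heart. Over all genes tested, 7.58% were lower in kidney and 8.78% in heart. In kidney all 19 listed genes passed the filter, 12 were lower and 0 were higher past the thresholds, and the median log2 ratio was −1.15. Their summed level was 2347 CPM with CLP and 454 CPM with CLP + MLT. The largest falls were those of Fgb, a fibrinogen chain, from 4755 to 18 counts (−7.34), and of the serum amyloid genes Saa1 (−4.94) and Saa2 (−4.74), near-identical copies between which reads may be split. In heart 10 of the 19 were lower and 0 were higher, with a median of −0.60 and a summed level of 1314 and 516 CPM. The largest falls there were Lcn2, the iron-siderophore binding protein lipocalin, from 3224 to 372 counts (−3.10), Lrg1 from 4383 to 548 counts (−2.99), and Timp1, a metalloproteinase inhibitor, from 199 to 46 counts (−2.09). The fibrinogen chains Fgb (−0.65) and Fgg (−0.60) were lower past the thresholds in heart as well. The third chain Fga (−0.50) and the haemoglobin scavenger Hp (−0.28) were not, nor were Stat3 and Socs3 themselves. Among the signalling genes of the list, chosen for naming after their values were seen, Bcl3 (−1.15) and Myc (−1.23) were lower in kidney, while Cebpb (0.22), Cebpd (−0.0067) and Junb (−0.56) were not past the thresholds. Liver cells make many of these proteins, and 5 hepatocyte markers summed to 64.8 and 72.8 CPM in kidney, where 1 of 4 was higher, and to 13.7 and 7.97 CPM in heart, where 1 of 4 was lower; their part was not tested. The list was written with earlier results of these data known and is not independent evidence of its direction.

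Of the genes known to respond to IL-1 and NF-κB, 3 of the 10 that passed the filter were lower in kidney and 0 were higher, with a median of −0.50, against 7.58% lower over all genes. These were the neutrophil chemokines Cxcl2, from 47 to 6 counts (−2.23, interval −3.81 to −1.07), and Cxcl1, from 337 to 72 counts (−1.55, interval −1.94 to −1.18), and the adhesion molecule Icam1, from 1422 to 499 counts (−0.84, interval −0.99 to −0.69). Cxcl2 passed the filter only through the CLP library, and this list too was chosen with earlier results of these data known. The inhibitor Nfkbia, which NF-κB induces, had 988 and 465 counts, a ratio of −0.41 (log2) that was not past the thresholds. In heart 0 of 10 were past the thresholds, against 8.78% lower over all genes, and the median was 0.043. The difference between the tissues was not tested.

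**Figure D4:**
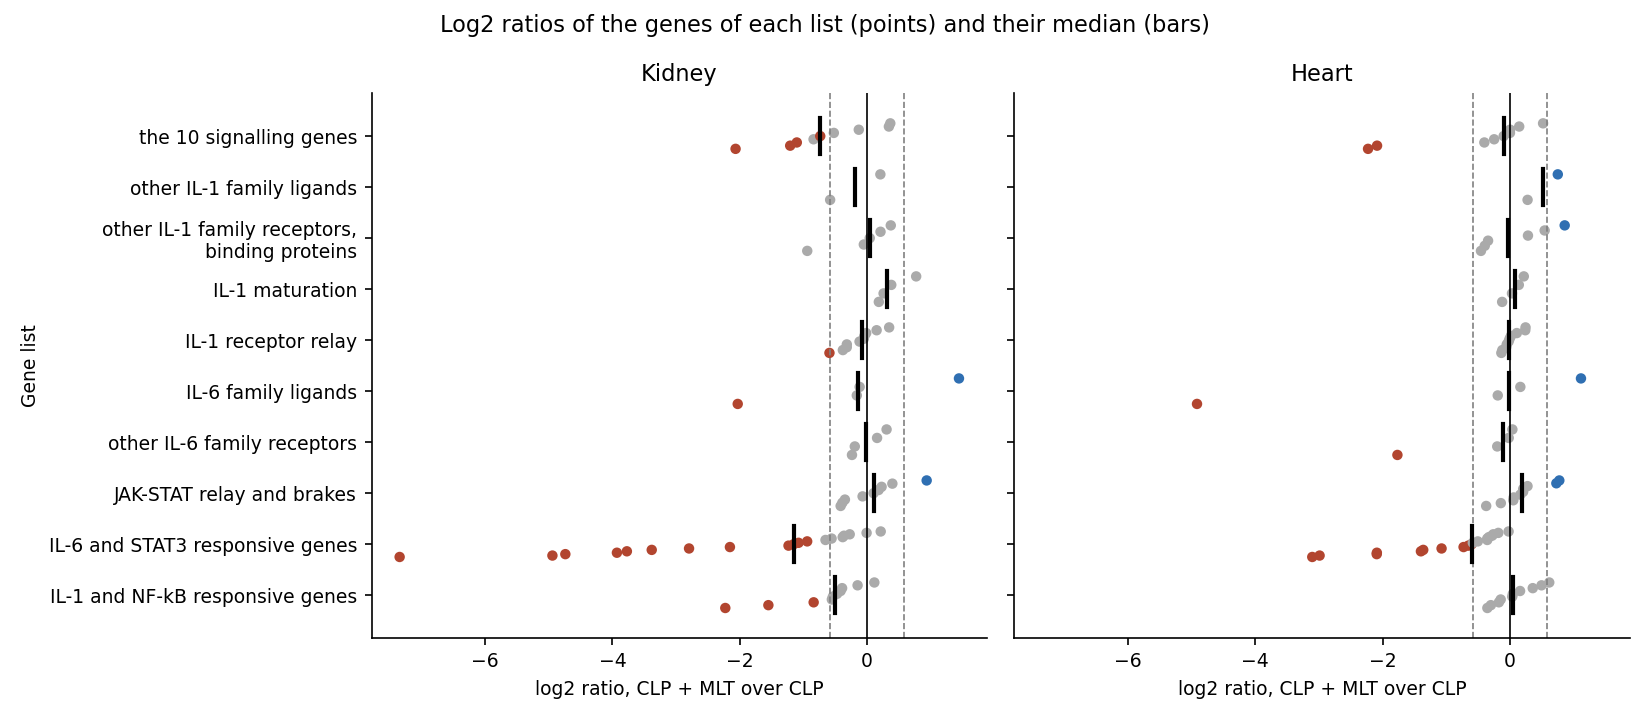
Log2 ratio of CLP + MLT over CLP for each gene of the 10 members and the 9 pathway lists, in kidney (left) and heart (right). Only genes that passed the filter are drawn, without the cell type markers. Black bars are medians, dashed lines mark a fold of 1.5, and red and blue mark genes lower and higher past the thresholds. Il1rn in kidney is drawn with its 0 set to 3 counts. The IL-6 and STAT3 responsive genes have the lowest median of these lists in both tissues, −1.15 in kidney and −0.60 in heart, while the relay lists stay around 0.

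For the 5 members that averaged 100 counts or more in both tissues, the protein-coding gene with the most similar profile over the 4 libraries was found among 8945 genes by the Euclidean distance of the centred log2 CPM values. For Socs3 it was Maff, a small MAF transcription factor, at a distance of 0.17, with 178 and 47 counts in kidney and 238 and 222 in heart. For Stat3 it was the tyrosine kinase gene Fer at 0.21, with 177 and 59 counts in kidney and 130 and 121 in heart. The nearest genes of the receptors were closer, Wipf2 at 0.039 from Il6st, Elac1 at 0.063 from Osmr and Mcm3ap at 0.067 from Il1r1. With 4 points per gene this is a description of these libraries.

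Markers of other cell types were lower or higher in part. Over all genes tested, 7.58% were lower and 7.8% higher in kidney, and 8.78% lower and 7.15% higher in heart. In kidney the 5 endothelial markers had a median of −0.43 with 0 past the thresholds, and of the fibroblast markers 1 of 4 was lower. In heart 1 of 5 endothelial markers was higher and 1 of 5 fibroblast markers was lower. Of the cardiomyocyte markers 2 of 6 were lower in heart and 3 of 5 were higher in kidney, and of the kidney epithelial markers 2 of 8 were higher and 1 was lower in kidney. Lymphocyte markers summed to 0.618 to 1.88 CPM per library. The part of these cell types in the values of Stat3, Socs3 and the receptors was not tested.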

How the data were processed

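RNA from 4 libraries, 1 per group, was analysed. The authors trimmed reads with trim-galore, aligned them to mm10 with HISAT2 2.1.0 and, per the labels, counted them with HTSeq; no source used here gives its version, strand setting or annotation. The deposited values are raw read counts per gene. The 5 totals that name no gene, 65.5% to 72.8% of a file, were left out. Symbols were matched for 55141 of 55401 identifiers. Positions and exon lengths came from GENCODE M21 on GRCm38, the build of mm10, and promoter sequences from RefSeq (GRCm38.p6). Older symbols stood in for 4 interleukin 36 genes.

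TMM factors were computed within each tissue on genes averaging 10 counts or more in R 4.3.3 with edgeR 4.0.16. They were 1.07 and 0.935 in kidney and 0.981 and 1.02 in heart (CLP and CLP + MLT). DESeq2 1.42.0 gave alternative size factors. Ratios, exact binomial tests and intervals were computed in Python 3.11.15 with scipy 1.17.1, with a prior count of 0.5 in log2 ratios. A dispersion cannot be estimated from single libraries, so the study's thresholds (fold of 1.5, p of 0.01) were applied to the reads. A 0 was set to a floor of 3 counts. Reads copied by PCR are not independent molecules, and intervals and floors therefore hold for counting error alone. Heart minus kidney differences have Wald intervals with 0.5 counts added. The procedure was tested on simulated counts without variation between mice. The genes changed there had higher mean counts than Il1a, Il1b, Il1rn and Il1r2, so this test does not cover calls at such low counts.

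Named genes were the 10 members, per pathway list and tissue up to 3 of the most changed genes beyond the thresholds, and the nearest gene in profile; others, such as Il6, Osm, Ly6g, Nfkbia, Fga, Hp and genes on the opposite strand, were picked with their values in view. One listed gene's own result is not reported here. Members and lists were chosen with earlier results of these data known. Alternatives were library size only, DESeq2 size factors or upper quartile scaling, removal of mitochondrial and haemoglobin genes, a prior count of 5, no filter or a mean of 50 counts, a fold of 2, and an exact test in edgeR that assumes a coefficient of variation of 0.1, 0.2 or 0.4.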

Additional observations from a re-analysis of the deposited data

Results flagged for a closer look

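Of the 8 genes that could be compared between tissues, 4 had a heart minus kidney difference in log2 ratio whose counting interval did not include 0. The difference was 1.26 for Il6ra, 0.86 for Stat3, 1.11 for Socs3 and −0.34 for Osmr (−0.55 to −0.13). Il6ra had a negative ratio in kidney and a positive one in heart, and Stat3 and Socs3 were lower in kidney by a larger factor than in heart. Osmr was higher in the CLP + MLT kidney library with hardly any difference in heart. Scaled by library size only, Osmr had log2 ratios of 0.15 in kidney and 0.060 in heart, so its difference between tissues depends on the scaling. These intervals compare 4 libraries, and the difference between tissues was not tested against the spread between mice. For Il1b the difference was 0.12 (−0.85 to 1.09), which was not detectable at this depth.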

How the results depend on the processing

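The 4 calls in kidney and the 2 in heart were the same in number and in genes under all 3 other scalings, without mitochondrial and haemoglobin genes, with a prior count of 5 and with no filter. Scaled by library size only, the median of all genes in kidney was −0.19, and 23.5% of the calls in kidney were higher, against 50.7%. Il6st in kidney then had a log2 ratio of −0.32, Il1r1 one of 0.17 and Osmr one of 0.15. Intervals of log2 ratios given above were computed with TMM scaling only. In heart 52.0% of the calls were higher with that scaling and 44.9% in the values reported. In kidney, 3 members were called with the filter at 50 counts (Il6ra, Stat3 and Socs3), where 961 of all 13355 genes were higher and 945 lower. Il1rn, Stat3 and Socs3 were called at a fold of 2, where 563 of all 16932 genes were higher and 622 lower. The same 3 were called at assumed variations of 0.1 and 0.2, where 12.1% and 3.66% of all genes were called. At 0.4 only Il1rn was called, where 0.532% of all genes were called. In heart, 2 were called at a fold of 2, where 595 of all 15871 genes were higher and 664 lower. The same 2 were called at 0.1 and 0.2, where 12.1% and 4.17% of all genes were called. At 0.4, where 0.397% of all genes were called, 0 members were called. With the filter at 50 counts 0 were called, since neither Il1rn nor Il1r2 passes that filter. The assumed variation itself lowers the calls at 0.4; how far mice vary was not tested. No paired analysis was possible because each group had 1 library, and no replicate could be left out. Depth limits Il1a, Il1b, Il1rn and Il1r2 most, with a mean of 42 counts or fewer in each tissue.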
